A study of Homo sapiens with 12 samples.

Results

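The 5 mature miRNAs hsa-miR-3615, hsa-miR-7706, hsa-miR-7974, hsa-miR-10399-3p and hsa-miR-1292-5p (below without the prefix hsa) are described here across small RNA libraries of cells without DROSHA. They were chosen by name, out of 1277 mature miRNAs, because their reads were high in the DROSHA knockout with an empty plasmid and similar in the other groups, and because they are not among the miRNAs usually listed as made without DROSHA. Their levels in all 12 libraries chose them, so those levels and the differences between groups are given as descriptions and carry no test. The cells are HCT116, a human colorectal carcinoma line, with the genotype DROSHA-KO; whether they are 1 clone is not given in the sources used here. All received 4.5 µg of the plasmid pXC-NLS-DG4 together with a pCK plasmid, which was the empty vector in 1 group and carried DROSHA in the other 3, as the wild type, as the m4 mutant or without its belt. The DROSHA plasmids were given at 4.5 µg, and what m4 changes and what DG4 codes for are not stated in the labels. Each group has 3 libraries, numbered as repeats without a statement that they are separate cultures, so p-values measure the spread between these samples only.

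DROSHA is the nuclear RNase III enzyme that, with its partner DGCR8, cuts the hairpin out of most primary miRNA transcripts before DICER trims it to the mature form. A few hairpins are known to bypass it. Mirtrons are short introns whose ends are set by the splicing machinery, and capped precursors such as those of miR-320 and miR-484 begin at the first base of a transcript, so that transcription itself sets their 5′ end. Because DROSHA acts on most miRNAs at once, libraries were scaled on members of that list that lie outside the 5 described here: the sum of miR-320a to miR-320e, miR-484, miR-877-5p, miR-1224-5p and miR-1226-5p. A scaled read is a read count divided by the resulting size factor.

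The mature sequences are shown from RefSeq (GRCh38, the same assembly as the hg38 build of the study) because none of the 5 shares its seed with another member, or with any other mature name in the table that matched the reference. The seed, bases 2 to 8, is in capitals. The last 3 sequences are the other arms of 2 of the hairpins and miR-484, the listed capped miRNA.
miR-3615: uCUCUCGGcuccucgcggcuc
miR-7706: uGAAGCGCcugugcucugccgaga
miR-7974: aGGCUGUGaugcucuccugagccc
miR-10399-3p: cUCUCGGAcaagcuguagguc
miR-1292-5p: uGGGAACGgguuccggcagacgcug
miR-10399-5p: aAUUACAGauugucucagaga
miR-1292-3p: uCGCGCCCcggcucccguuc
miR-484: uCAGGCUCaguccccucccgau
The seed of miR-3615 recurs in miR-10399-3p shifted by 1 base: the 7-base run CUCUCGG begins at base 2 of miR-3615 and at base 1 of miR-10399-3p, and 4 mature names hold it. The GC content of the mature sequence was 71.4% for miR-3615, 68.0% for miR-1292-5p, 62.5% for miR-7706, 62.5% for miR-7974 and 57.1% for miR-10399-3p, all above the median of 54.5% over the 1148 of 1286 mature names that matched the reference and all inside its 5th to 95th percentile, 33.3% to 76.2%. Lengths were 21, 25, 24, 24 and 21 nt in that order, beside a median of 22 nt. The reference form of miR-1292-5p is thus longer than the RNA of 19 to 24 nt that was taken from the gel, and how that step affected its reads was not tested. By the arm given in the table, 4 of the 5 are 3p miRNAs, beside 49.0% of all mature miRNAs.

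The hairpins of miR-3615 and miR-7706 lie at the starts of genes. The miR-3615 sequence is at chr17:74748663-74748683 on the plus strand, in the first exon and 5′ UTR of SLC9A3R1 (NHERF1 in RefSeq), a scaffold protein of the apical membrane of epithelial cells. Its annotated hairpin, chr17:74748613-74748699, begins 39 nt before the start of 2 GENCODE transcripts of the gene and 15 nt before the RefSeq start. The mature sequence itself begins 11 nt after the GENCODE starts and 35 nt after the RefSeq start. The miR-7706 sequence, chr15:85380639-85380662 on the plus strand, lies in a first exon of AKAP13, an A-kinase anchoring protein. Its hairpin, chr15:85380596-85380662, begins 9 nt and 25 nt after the starts of 2 GENCODE transcripts, 44 nt before the start of another and 7 nt before the RefSeq start. From the same starts in that order, the mature sequence begins 52 nt and 68 nt after, 1 nt before and 36 nt after. For comparison, the hairpin of miR-484 begins 27 nt after a GENCODE start of NDE1 and 88 nt before the RefSeq start, so annotated starts of the same gene differ by more than the length of a mature miRNA.

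The other 3 hairpins lie elsewhere in their genes. The miR-1292-5p sequence, chr20:2652779-2652803 on the plus strand, comes from intron 1 of NOP56, a core protein of box C/D small nucleolar ribonucleoproteins. That intron is 178 nt long, and the hairpin, chr20:2652777-2652842, begins 113 nt into it and ends 1 nt beyond its 3′ end, inside exon 2. In a processed transcript of NOP56 the same bases lie within exon 1. The miR-7974 sequence, chr19:11495544-11495567 on the minus strand, lies in intron 3 of ZNF653, a zinc finger protein. This intron is 8046 nt long and the hairpin, chr19:11495544-11495622, begins 327 nt from its 5′ end, so neither of its ends meets a splice site. The miR-10399-3p sequence, chr7:139044100-139044120 on the minus strand, lies in the UTR of exon 13 of 13 of ZC3HAV1, the zinc-finger antiviral protein. Its hairpin, chr7:139044100-139044157, is 58 nt long and both mature arms reach its ends, with 0 nt of annotated flank.

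Among the 797 of 978 hairpins that matched the reference, 38 (4.77%) had their 5′ end within 50 nt of an annotated transcript start, beside 2 of the 5 members. An end within 5 nt of an intron's 3′ end was found for 195 of these hairpins (24.5%), beside 1 of the 5, mir-1292. Of the 33 canonical comparators, a list of let-7, miR-17-92, miR-23/24/27, miR-30 and miR-10 family members and miR-21, 31 matched and 0 lay at either position. Folding energy per nt, computed with RNAfold, was -0.52 kcal/mol for mir-3615, -0.43 for mir-7706, -0.52 for mir-1292, -0.34 for mir-10399 and -0.30 for mir-7974, beside a median of -0.46. Hairpin GC content was 73.6%, 71.6%, 71.2%, 39.7% and 63.3% in that order, beside a median of 54.4%, so mir-10399 differed from the other 4 in composition. The plot of positions draws mir-3615, mir-7706 and mir-1292, with mir-484 beside them.

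**Figure D1:**
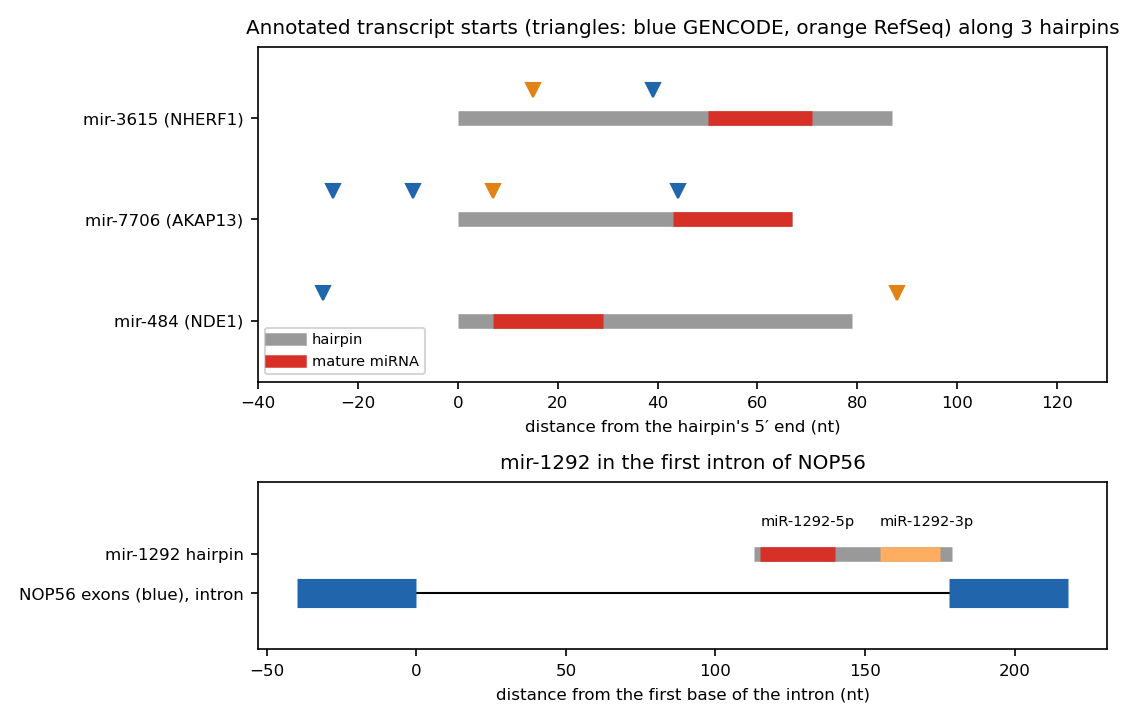
Positions of the hairpins of miR-3615, miR-7706 and miR-484 around annotated transcript starts, and of the miR-1292 hairpin in NOP56, in nt. Grey bars are hairpins, red bars mature sequences and triangles annotated starts (blue GENCODE, orange RefSeq), and blue boxes are the parts of the NOP56 exons next to the intron. The miR-3615 sequence begins 11 nt after the GENCODE starts, and the mir-1292 hairpin ends 1 nt beyond its intron.

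The table held 132667 to 407461 reads per library. Only the line with most reads was kept of each mature name, and names with nearly the same reads were merged. This left 101886 to 332081 reads per library, with 649 to 800 miRNAs detected. m4 replicates 1 and 3 are the shallowest libraries. The 5 members were listed on 1 hairpin each, and none had counts close enough to those of another name to be merged. How reads that map to several names were treated is not given in the sources used here. Summed intestinal markers were 148 to 190 scaled reads with empty plasmid against 3835 to 8439 in wild type libraries, with miR-194-5p alone of the 8 at 0 in the former. Most of the wild-type sum was miR-10a-5p, with 7372, 8208 and 3692 scaled reads in replicates 1, 2 and 3. Of 5 tested intestinal markers, edgeR called 3 higher with wild type, beside 44.8% of all tested miRNAs. Their log2 changes ran from 0.51 for miR-200c-3p to 6.54 for miR-10a-5p. Of 11 markers of other cell types 7 were in the table, and with the empty plasmid 6 of the 11 had 0 reads or no line, among them miR-124-3p, miR-133a-3p and miR-223-3p. Their sum was 217 to 297 scaled reads with empty plasmid, above the intestinal sum, and 480 to 753 with wild type, 327 to 631 with m4 and 570 to 789 with the belt deletion; its part in the members' values was not tested. In the same libraries the DROSHA-dependent miR-21-5p was higher with wild type than with the empty plasmid by 5.34 on the log2 scale, and the excess was 1.83 for m4 and 5.14 for belt deletion.

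miR-3615 and miR-7706 were the most abundant of the 5. With the empty plasmid miR-3615 had 9623, 5776 and 8096 scaled reads in replicates 1, 2 and 3, and ranked 3 among all miRNAs in each library. It had 6969, 5248 and 4495 in the wild-type libraries, 4658, 7772 and 5957 in the m4 libraries and 7207, 5073 and 5574 in those with the belt deletion. The highest values were in the empty plasmid group, and its range overlapped that of each other group. Group means were 7832 ± 1937 (SD, n = 3) for empty plasmid, 5571 ± 1268 for wild type, 6129 ± 1564 for m4 and 5951 ± 1116 for belt deletion. The log2 differences from the empty plasmid were -0.49 (SE 0.31) for wild type, -0.35 for m4 and -0.40 for the belt deletion, so the 3 DROSHA groups lay within 0.14 of each other.

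miR-7706 had 8483, 5648 and 6384 scaled reads with the empty plasmid, where it ranked 4 in each library. It had 5709, 4615 and 3679 in the wild-type libraries, 2841, 6672 and 6395 in the m4 libraries and 7016, 9603 and 6584 in those with the belt deletion. The lowest value of all was in m4 replicate 1, a shallow library, and all 3 belt deletion libraries lay above all 3 wild-type libraries. Means were 6838 ± 1471 for empty plasmid, 4668 ± 1016 for wild type, 5303 ± 2137 for m4 and 7734 ± 1633 for belt deletion (SD, n = 3). The log2 difference between belt deletion and wild type was 0.73 (SE 0.32), the largest difference of any member in any of the 5 comparisons with empty plasmid or wild type. This order of belt deletion over wild type without overlap held under all 6 scalings. Of the tested miRNAs, 32.9% did not overlap between these groups, and 13.9% were higher without overlap. The 5 reference features themselves differed here by -0.44 for miR-484 to 0.69 for miR-1224-5p on the log2 scale. Relative to miR-3615 in the same libraries, which needs no scaling, miR-7706 had a mean ratio of 0.883 ± 0.0947 for empty plasmid, 0.839 ± 0.0350 for wild type, 0.847 ± 0.232 for m4 and 1.35 ± 0.482 for belt deletion (SD, n = 3). The belt deletion ratios were 0.973, 1.89 and 1.18 in replicates 1, 2 and 3, so replicate 2 raised their mean. Their range lay above that of wild type, which reached 0.879, and overlapped those of empty plasmid, up to 0.978, and m4, up to 1.07.

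**Figure D2:**
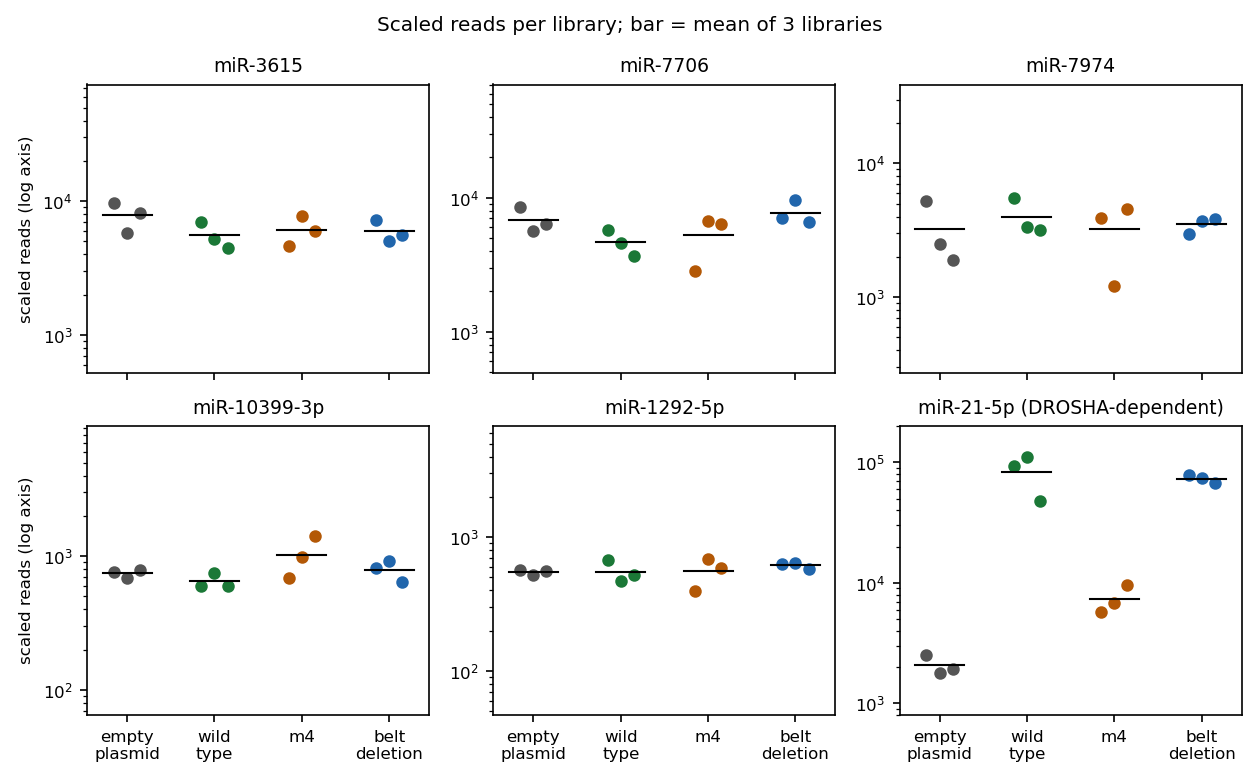
Scaled reads (counts divided by the size factor, log axis) of the 5 miRNAs in each of the 12 libraries, with points for libraries and lines for the mean of each group of 3, and miR-21-5p as a DROSHA-dependent comparator. The miR-7706 points with the belt deletion, 6584 to 9603, lie above those with wild type, 3679 to 5709, and the miR-7974 points scatter most.

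miR-1292-5p, followed by 39 nt of a hairpin that ends at the 3′ end of a NOP56 intron, was the least abundant and the least variable. It had 570, 519 and 554 scaled reads with the empty plasmid, 671, 466 and 517 in the wild-type libraries, 396, 684 and 592 in the m4 libraries and 627, 646 and 574 in those with the belt deletion. Means in that order were 548 ± 25.9, 552 ± 106, 557 ± 147 and 616 ± 37.1 (SD, n = 3). The 3 belt deletion libraries lay just above the 3 empty plasmid libraries, by 574 against 570 at the nearest, and this order did not last: the groups overlapped when the libraries were scaled to the sum of the reference reads, and it turned round, with the belt deletion lower, under scaling by TMM, by DESeq2 and by total counts. Its log2 differences from the empty plasmid were 0.01 for wild type, 0.03 for m4 and 0.17 for the belt deletion, with an SE of 0.31. The other arm, miR-1292-3p, had 0 to 4 reads per library and was not tested. It made up at most 0.866% of the mir-1292 reads of a library, and in the 6 libraries where it had 0 reads that count allows a share of up to 0.387% to 1.24%, counting error only.

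miR-10399-3p, from the last exon of ZC3HAV1, had 765, 682 and 792 scaled reads with the empty plasmid. It had 594, 749 and 598 in the wild-type libraries, 692, 983 and 1408 in the m4 libraries and 816, 920 and 646 in those with the belt deletion. The highest value was in m4 replicate 3, a shallow library, and the m4 range overlapped that of every other group. Means were 746 ± 57.1, 647 ± 88.2, 1028 ± 360 and 794 ± 138 (SD, n = 3), and m4 differed from wild type by 0.67 (SE 0.31) on the log2 scale.

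The rule did not use the reads of the other arm of this hairpin, miR-10399-5p, so it was tested. The test is not independent of the rule, because both arms share a hairpin and miR-10399-3p was chosen as similar across groups. miR-10399-5p had 81.8, 93.6 and 127 scaled reads with the empty plasmid, 93.1, 153 and 83.6 in the wild-type libraries, 124, 121.7 and 197 in the m4 libraries and 99.8, 77.1 and 93.1 in those with the belt deletion. By edgeR's quasi-likelihood test with Benjamini-Hochberg adjustment over 310 miRNAs, its log2 change from the empty plasmid was 0.12 (adjusted p = 0.844) for wild type, 0.55 (adjusted p = 0.239) for m4 and -0.16 (adjusted p = 0.793) for belt deletion. None of these passed the threshold of 0.05 with the reference scaling, and the SE of 0.36 for wild type means that a change of that size could not be detected here. All 3 calls depended on the scaling. Under TMM the same arm was lower with wild type by -0.81 (adjusted p = 0.0105) and with the belt deletion by -0.84 (adjusted p = 0.0108). The belt deletion was also lower with DESeq2's factors (adjusted p = 0.0292) and with total counts (adjusted p = 0.0365), and m4 was higher under the sum of the reference (1.201, adjusted p = 0.0310). The 5p arm made up 11.8 ± 2.08% of the mir-10399 reads for empty plasmid, 14.3 ± 2.42% for wild type, 12.8 ± 2.15% for m4 and 10.4 ± 2.47% for belt deletion (SD, n = 3). The ranges of the arm share overlapped between all 4 groups, the farthest apart being wild type at 12.3% to 16.95% and belt deletion at 7.73% to 12.6%. All 3 belt deletion libraries lay below all 3 m4 libraries in scaled reads of miR-10399-5p, with a log2 difference of -0.71 that did not pass the edgeR test (adjusted p = 0.164). The difference did pass under TMM (-0.74, adjusted p = 0.0378), DESeq2's factors (-0.83, adjusted p = 0.0263) and total counts (-1.72, adjusted p = 0.000402).

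miR-7974, from within a long ZNF653 intron, varied most between replicates. It had 5260, 2515 and 1907 scaled reads with the empty plasmid, 5493, 3336 and 3157 in the wild-type libraries, 3883, 1213 and 4586 in the m4 libraries and 2956, 3713 and 3828 in those with the belt deletion. Replicates of 1 group differed by more than the group means did, which were 3227 ± 1787, 3995 ± 1300, 3227 ± 1779 and 3499 ± 474 (SD, n = 3). The lowest value was in m4 replicate 2, the deepest m4 library. Its pooled SD within groups was 0.69 on the log2 scale, beside 0.33 for miR-3615, 0.44 for miR-7706, 0.31 for miR-10399-3p and 0.25 for miR-1292-5p. The median over the 35 tested miRNAs with at least 500 scaled reads was 0.37. Between m4 and the empty plasmid the log2 difference of miR-7974 was -0.00 with all libraries, 0.39 without m4 replicate 2, 0.55 without empty replicate 1 and -0.34 without m4 replicate 3. Against wild type, m4 was at -0.31, and at 0.08 without m4 replicate 2. No direction can therefore be given for miR-7974 with m4.

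In order of level with the empty plasmid, miR-3615 and miR-7706 did not differ beyond their spread, miR-7974 followed with a range that lay below both, and miR-10399-3p and miR-1292-5p came last with ranges that did not meet, at 682 to 792 and 519 to 570. With wild type the ranges of miR-10399-3p and miR-1292-5p overlapped, at 594 to 749 and 466 to 671. Reads of different miRNAs also carry the ligation and size bias of the library kit, so this order is one of reads. Ranks were lower with wild type, where miR-3615 stood at 6 to 8, miR-7706 at 8 to 10, miR-7974 at 9 to 13, miR-10399-3p at 32 to 36 and miR-1292-5p at 32 to 41. With the empty plasmid the ranks of the last 3 were 5 to 6, 10 to 11 and 13 to 14.

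With the reference scaling, 0 of the 5 members passed 2-fold in either direction against the empty plasmid in any of the 3 DROSHA groups. Of the 310 miRNAs tested, 49.4% did so for wild type, 48.1% for m4 and 47.4% for the belt deletion. The members' median log2 change was -0.21 for wild type, -0.00 for m4 and 0.12 for belt deletion, beside 0.88, 0.81 and 0.73 over all tested miRNAs. Against wild type, again 0 of 5 passed 2-fold with m4 or the belt deletion, beside 43.5% and 22.9% of those tested, and the members' medians were 0.14 and 0.16 beside -0.31 and -0.03. Between belt deletion and m4 it was 0 of 5 beside 34.5%. Other scalings changed these counts. Between wild type and empty plasmid 3 of 5 passed under TMM (67% of those tested), 3 under total counts (64.2%) and 2 with DESeq2's factors (59.7%). For m4 against empty plasmid it was 1 under TMM (39.8%) and 1 under the sum of the reference (68.3%). For the belt deletion it was 1 under TMM (53.1%) and 1 under total counts (52.6%). Under total counts 4 passed between m4 and wild type (65.2%) and 2 between belt deletion and m4 (56.1%). Because the rule chose miRNAs that were similar across groups, nothing is read from these counts. The comparisons with the empty plasmid share its 3 libraries.

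All 5 members passed the filter on low counts. With the reference scaling, 0 of 5 had groups that did not overlap between wild type and empty plasmid, beside 53.9% of the tested miRNAs. The count was also 0 of 5 between m4 and empty plasmid (46.5% of those tested), between m4 and wild type (43.5%) and between m4 and belt deletion (36.5%). Between belt deletion and empty plasmid it was 1 of 5, miR-1292-5p (51% of those tested), and between belt deletion and wild type 1 of 5, miR-7706.

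**Figure D3:**
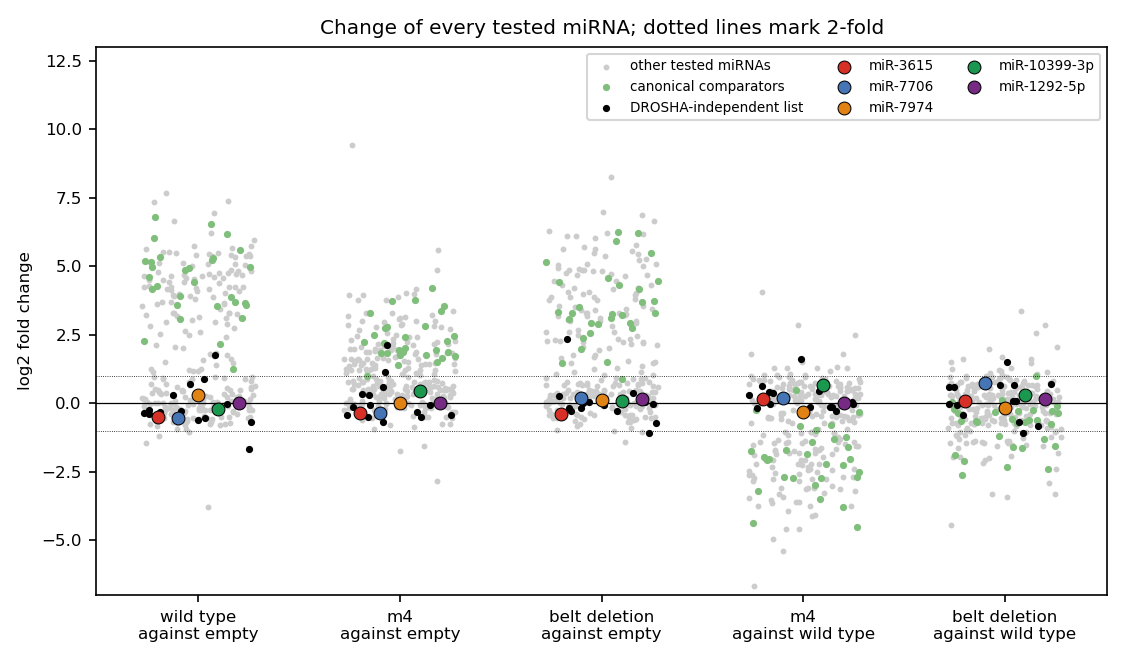
log2 fold change of each of the 310 tested miRNAs (small points, spread sideways for legibility) in 5 comparisons, with the canonical comparators in green, the DROSHA-independent list in black and the 5 miRNAs as large points. With the reference scaling, the 5 miRNAs lie between -0.55 and 0.73, inside the dotted lines at 2-fold.

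How far the members can be called similar depends on the scaling. Under TMM scaling all 5 were lower with wild type than with the empty plasmid, with a median of -1.10, and 4 of the 5, all but miR-7974, did not overlap, beside 73.9% of tested miRNAs that did not overlap and 33.2% that were lower without overlap. Under TMM, which centres on the bulk of miRNAs, the median of all tested miRNAs went from 0.88 to -0.12. Total counts gave a members' median of -1.03 beside -0.10 over all tested miRNAs, and DESeq2 size factors gave -0.89 beside 0.09. In both, 5 of 5 were again lower, and 4 of 5 were lower without overlap. The shares of tested miRNAs lower without overlap were 31.3% under total counts and 27.7% with DESeq2's factors. The sum of the reference reads gave a members' median of 0.16 beside 1.25. For m4 against empty plasmid the members' median ran from -0.64 under TMM to 0.56 under the sum of the reference. There 4 of 5 were lower without overlap under TMM (13.5% of those tested) and 3 of 5 with DESeq2's factors (9.03%). Under total counts 1 of 5 was higher without overlap (49.4% of those tested), and under the sum of the reference 2 of 5 were (57.1%). For belt deletion against empty plasmid 4 of 5 were lower without overlap under TMM (24.5%), DESeq2's factors (21.3%) and total counts (20.6%). For m4 against wild type 4 of 5 were higher without overlap under total counts (35.2%). The scaling list also holds miRNAs that differ among themselves, so the similarity described here is one relative to that list. The plot by scaling shows the 5 shifting together, as a change of size factors makes them do.

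**Figure D4:**
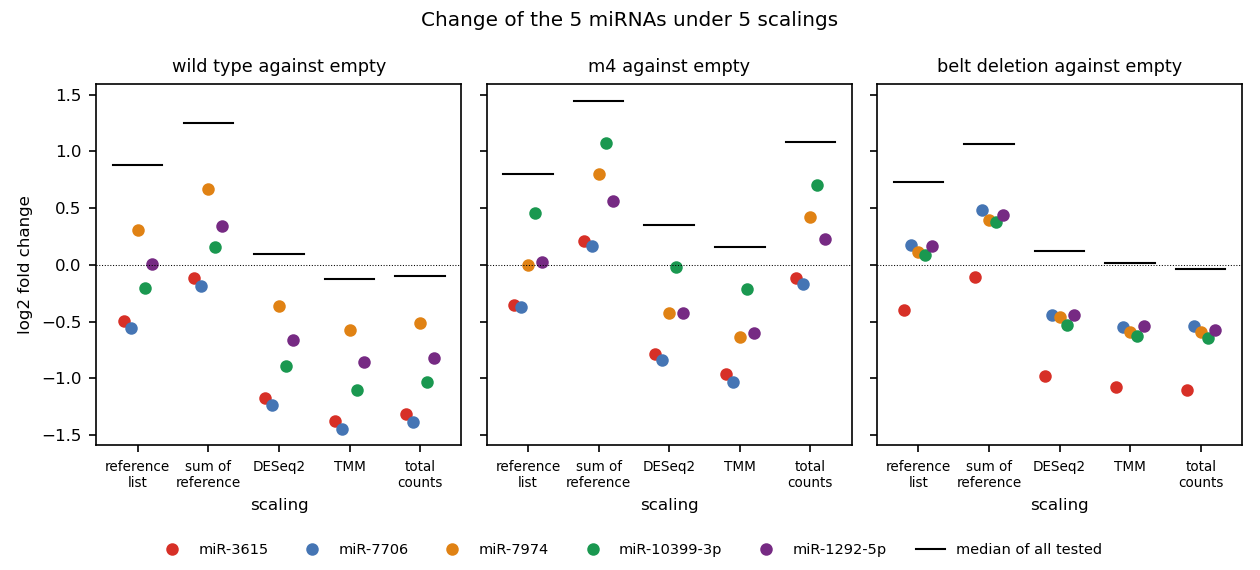
log2 fold change of the 5 miRNAs (points) and the median of all tested miRNAs (lines) in 3 comparisons with the empty plasmid under 5 scalings. With wild type the members' median runs from -1.10 under TMM to 0.16 under the sum of the reference reads.

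Within a library the members can be set beside other miRNAs as a share of its reads. Together they took 9.63% to 12.96% of miRNA reads in the empty plasmid libraries, 4.27% to 5.73% in wild type, 8.79% to 13.6% in m4 and 6.07% to 7.13% in belt deletion libraries. Means were 11.1 ± 1.70%, 5.04 ± 0.730%, 11.3 ± 2.43% and 6.57 ± 0.535% (SD, n = 3). The empty plasmid and m4 libraries were thus alike and above all wild-type and belt deletion libraries in this share. Set between groups, such a share is a scaling by total counts. It restates that scaling for miRNAs chosen by their levels and is a description only. The miR-320 family took 79.7%, 35.9%, 64.0% and 40.01% in the same order, with the reservation that reads of its near-identical members may be listed under several names. The log2 ratio of the members' geometric mean to that of the reference features was 0.51 ± 0.19 for empty plasmid, 0.47 ± 0.27 for wild type, 0.50 ± 0.25 for m4 and 0.65 ± 0.07 for belt deletion (SD, n = 3). The mean was highest for belt deletion, whose range of 0.57 to 0.71 overlapped the others. Those ran from 0.37 to 0.72 for empty plasmid, 0.24 to 0.76 for wild type and 0.35 to 0.79 for m4. The same reference features set the size factors, and the members were chosen as similar across groups. This ratio therefore restates the reference scaling and is no separate evidence of similarity.

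**Figure D5:**
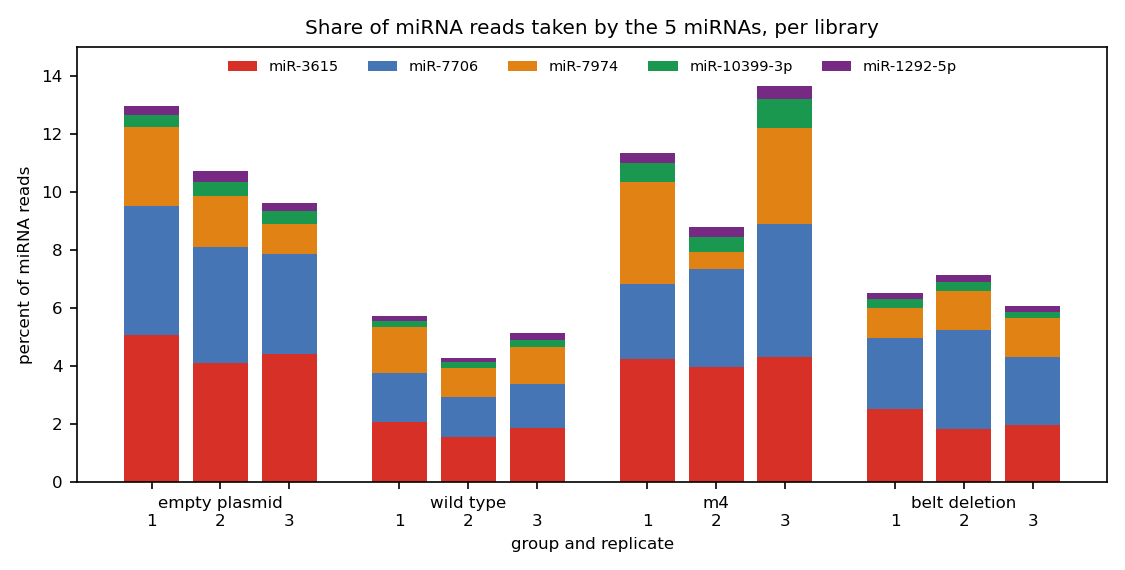
Percent of miRNA reads in each of the 12 libraries taken by the 5 miRNAs, as stacked bars by group and replicate. The summed shares are 9.63 to 12.96% for empty plasmid and 4.27 to 5.73% for wild type.

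Calls over all tested miRNAs (edgeR, adjusted p under 0.05) came to 141 (45.5%) for wild type, 131 (42.3%) for m4 and 139 (44.8%) for the belt deletion against empty plasmid, and to 123 (39.7%) for m4 and 42 (13.5%) for the belt deletion against wild type. Of 30 tested canonical comparators, 29 rose against the empty plasmid in each DROSHA group, with median log2 changes of 4.51 for wild type, 2.09 for m4 and 3.28 for the belt deletion, while 44.8%, 41.3% and 43.9% of all tested miRNAs rose and 0.645%, 0.968% and 0.968% fell. Of 14 tested miRNAs on the DROSHA-independent list, 1 rose and 0 fell for wild type, 2 rose and 0 fell for m4, and 1 rose and 2 fell for belt deletion. The scaling was taken from part of that list, so it could not move far as a whole, and under TMM 11, 5 and 6 of the 14 fell. For single comparators, let-7i-5p differed from the empty plasmid by 6.16, 1.77 and 5.90 and miR-10a-5p by 6.55, 3.55 and 6.26 on the log2 scale in wild-type, m4 and belt deletion libraries.

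The rule carried no numeric limit. With at least 100 scaled reads with the empty plasmid, 36 miRNAs were found, and 24 of them stayed within 2-fold in all 3 comparisons with it. These 24 hold the 5 members, 7 miRNAs of the DROSHA-independent list and 12 others. The members rank 3, 4, 5, 10 and 14 by level. Just outside them, the most abundant unlisted miRNA within 2-fold was miR-3928-3p at 298 scaled reads, while miR-4521, at a level among the members, differed by 1.26 with wild type and miR-216a-3p by -3.80.

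Across the 12 libraries the members did not all move together. The Pearson correlation of log2 scaled reads was 0.78 between miR-7706 and miR-1292-5p, 0.59 between miR-3615 and miR-7706 and 0.52 between miR-3615 and miR-1292-5p. For miR-7974 it was -0.17 to -0.01 with the other members. The points share libraries and size factors, so these values are descriptions. The tested miRNAs most like each member were miR-6808-3p (0.77), miR-3929 (0.73) and miR-4658 (0.72) for miR-3615. For miR-7706 they were miR-6783-3p (0.83), miR-4745-5p (0.81) and miR-664a-5p (0.79), and for miR-7974 miR-1843 (0.85), miR-3143 (0.84) and miR-1226-3p (0.78). For miR-10399-3p they were miR-659-5p (0.88), miR-6847-5p (0.88) and miR-10525-3p (0.87), and for miR-1292-5p miR-4709-5p (0.85), miR-6866-5p (0.82) and miR-6892-5p (0.79). These were picked as the highest among all tested miRNAs outside the members. Some had few reads, with means of 14.4 scaled reads for miR-6808-3p, 9.95 for miR-4658, 11.4 for miR-3143, 13.8 for miR-4709-5p and 9.76 for miR-6892-5p.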

How the data were processed

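Reads of mature miRNAs were measured in 12 small RNA libraries, 4 groups of 3. The authors deposited 1 table of raw read counts per mature name and hairpin. The submitters' processing notes name the tools cutadapt and Bowtie2 and the build hg38; versions, the counter and the miRNA annotation are not given in the sources used here. Blank cells (42.7%) were read as 0, only the line with most reads was kept of each mature name, and names whose reads were the same within 5 reads or 5% (9 pairs) were merged. Size factors were median ratios over 5 reference features, each of 20 reads or more in all libraries. The robust quasi-likelihood F test of edgeR 4.0.16, under R 4.3.3, was fitted to all 12 libraries without covariates, filterByExpr kept 310 miRNAs, with Benjamini-Hochberg adjustment over them; the fit was tested on simulated data. Correlations used log2(scaled reads + 0.5). Positions came from GENCODE 29 and RefSeq, folding energies from RNAfold 2.7.2. Named miRNAs were the members, their other arms, the 3 most alike miRNAs for each, the unlisted miRNAs within 2-fold, the reference features and 3 comparators; miR-4521 and miR-216a-3p were added after their values were seen. The members and lists were chosen with earlier results of these data known. Alternatives were other scalings, no filter, DESeq2 1.42.0, summed hairpin copies, a replicate block, fits of the 2 groups alone and leaving out each library.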

Additional observations from a re-analysis of the deposited data

How the results depend on the processing

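Scaling moved the members' values most. Their median log2 change with wild type against the empty plasmid was -1.10 under TMM, -0.89 with DESeq2's factors and -1.03 with total counts, and with the belt deletion it was -0.59, -0.46 and -0.59. Under total counts it was 1.19 for m4 against wild type. TMM raised the miRNAs called for wild type against empty plasmid from 141 to 218, and total counts raised those for m4 against wild type from 123 to 193. For miR-10399-5p, edgeR under TMM gave -0.81 (adjusted p = 0.0105) with wild type, -0.84 (adjusted p = 0.0108) with the belt deletion and 0.71 (adjusted p = 0.0325) for m4 against wild type. DESeq2 size factors gave -0.75 (adjusted p = 0.0292) with the belt deletion. Total counts gave -0.90 (adjusted p = 0.0365) with the belt deletion and 1.56 (adjusted p = 0.000518) for m4 against wild type. The sum of the reference gave 1.20 (adjusted p = 0.0310) for m4 against empty plasmid. The cause was not tested.

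Leaving out 1 library gave members' medians from -0.32 to -0.15 for wild type, -0.33 to 0.05 for m4 and -0.01 to 0.22 for the belt deletion against empty plasmid, and -0.02 to 0.33 and 0.05 to 0.29 for m4 and the belt deletion against wild type. Whether libraries of the same replicate number were prepared together is not stated in the labels. Of 18 same-numbered pairs, 2 had correlated deviations over 0.1, which cannot decide this with 3 libraries per group. A replicate block gave 139, 127 and 137 calls for wild type, m4 and the belt deletion against empty plasmid, 118 and 40 for m4 and the belt deletion against wild type, and members' medians of -0.21, -0.01, 0.16, 0.18 and 0.16. With the block, miR-10399-5p passed the threshold in none of the 5 comparisons (0.14, 0.55, -0.14, 0.40 and -0.28).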

Other observations

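Besides the 5 members and miR-10399-5p, 11 unlisted miRNAs had at least 100 scaled reads with the empty plasmid and stayed within 2-fold in all 3 comparisons with it. In order of level they were miR-3928-3p (298 scaled reads), miR-1843 (202), miR-4741 (176), miR-3929 (159), miR-3662 (136), miR-143-3p (134), miR-6511a-5p (130.2), miR-6511b-5p (118), miR-3605-5p (116), miR-4435 (115) and miR-1293 (107). Of their 11 hairpins 10 matched the reference. The hairpin of miR-4741 had its 5′ end within 50 nt of an annotated transcript start, and a hairpin copy each of miR-6511a and miR-6511b ended within 5 nt of an intron's 3′ end. Of the 12 hairpins of abundant miRNAs that went past 2-fold, 11 matched and 0 lay at either position. Over all 797 matched hairpins, 4.77% lay at a transcript start and 24.5% at an intron's 3′ end. The 2 sets were split by their fold changes in these same data and are small, so nothing is read from these counts.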
